A study of Mus musculus with 8 samples.

Results

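The interferon-stimulated genes described here were 35 genes chosen by name as genes that interferons switch on. They comprised 22 genes known mainly as targets of type I interferon and 13 known mainly as targets of interferon gamma. A probe named through its transcript accession was found for 33 of the 35, and all 33 were tested among 20165 features. These were 20 genes of the type I class and 13 of the gamma class. Mx1 and Mx2, GTPases that block viral replication, were not matched and are not analysed here. The livers were those of male C57BL/6 mice, without any engineered allele, which were bought at 5 weeks of age and ate 1 of 2 diets as they wished. The 4 groups of 2 mice were HFD 3 months and HFD 9 months, given a high-fat diet with 58% fat for that time, and ND 3 months and ND 9 months, given a normal diet with 4.8% fat. Each mouse had 1 array with total RNA of its whole liver, labelled with Cy3. The question put to the members was whether interferon-induced genes differ between diets, whether this depends on feeding time, and whether both classes do the same.

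Type I interferons are secreted when a cell senses foreign or misplaced nucleic acid, and they signal through the receptor IFNAR to the kinases JAK1 and TYK2. A complex with STAT2 and IRF9 then binds the interferon-stimulated response element (ISRE) in front of antiviral genes. Interferon gamma, made mainly by T and NK cells, signals through IFNGR to JAK1 and JAK2, and many of its target genes carry the gamma-activated site (GAS). IRF1, itself a target of interferon gamma, also binds ISRE-like elements, so most members can answer to both kinds of interferon and the classes name the main inducer rather than the sole one. In liver, hepatocytes, Kupffer cells and endothelial cells can all respond.

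Promoters in both classes carry these elements, and stretches are shown for 10 of the members described below. All of the 10 but Igtp rose on HFD over both durations, so the stretches shown do not stand for all members. Whether a match goes with the difference between diets was not tested. RefSeq windows of build GRCm38.p6 were found for 26 of the 35 members and were searched over the 250 bases before the gene's start on both strands. The letters searched were GAAANNGAAA for the ISRE core and TTCNNNGAA for the GAS. An ISRE core lay in the windows of 12 of the 26 members (46.2%), against 936 of 27025 genes in the whole table (3.46%). A GAS lay in 7 of 26 (26.9%), against 2197 of 27025 genes (8.13%). By class, an ISRE core was found in 6 of 16 type I genes (37.5%) and in 6 of 10 gamma genes (60%), and a GAS in 2 of 16 (12.5%) and in 5 of 10 (50%). The windows of Gbp7, Igtp, Irgm2 and Oas1a held both, and the others with a match held 1 kind. Neither lay in 11 of the 26, Ddx58, Ifi35, Ifi44, Ifih1, Irf7, Irf9, Oasl1, Oasl2, Psmb9, Tap1 and Xaf1. Of these, Ddx58, Ifih1, Oasl2 and Psmb9 rose on HFD over both durations. Ifit1, Irgm1 and Isg15, which are not shown, held ISRE cores and did not pass over both durations. The stretches follow 5′ to 3′ on the gene's strand, with capitals for bases of a match to either motif. On the gene's strand an ISRE core that lies on the opposite strand reads TTTCNNTTTC.
Gbp2 (ISRE core, chr3:142620592-142620625, + strand): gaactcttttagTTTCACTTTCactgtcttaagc
Gbp7 (ISRE core, chr3:142530271-142530304, + strand): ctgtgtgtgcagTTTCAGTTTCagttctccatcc
Gbp7 (2 GAS, chr3:142530218-142530269, + strand): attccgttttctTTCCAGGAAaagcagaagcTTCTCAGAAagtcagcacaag
Igtp (GAS and ISRE core, chr11:58199499-58199543, + strand): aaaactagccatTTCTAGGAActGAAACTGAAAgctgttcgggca
Irgm2 (GAS and ISRE core, chr11:58214890-58214934, + strand): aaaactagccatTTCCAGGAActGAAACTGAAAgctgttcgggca
Irf1 (GAS, chr11:53769912-53769944, + strand): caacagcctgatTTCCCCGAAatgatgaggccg
Psmb8 (GAS, chr17:34198086-34198118, + strand): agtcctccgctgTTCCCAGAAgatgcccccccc
Ifit3 (2 ISRE cores, chr19:34583361-34583428, + strand): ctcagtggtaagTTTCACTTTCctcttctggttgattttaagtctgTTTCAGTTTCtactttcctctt
Oas1a (2 overlapping ISRE cores, chr5:120907526-120907557, - strand): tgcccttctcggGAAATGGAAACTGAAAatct
Rsad2 (ISRE core, chr12:26456551-26456584, - strand): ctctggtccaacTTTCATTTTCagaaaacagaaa
Stat2 (ISRE core, chr10:128270264-128270297, + strand): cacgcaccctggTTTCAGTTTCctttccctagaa
The stretches of the neighbouring genes Igtp and Irgm2 were the same at 44 of 45 bases, a GAS followed after 2 bases by an ISRE core. A match is a description of letters in these windows, and no match says only that these letters are not there.

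The diets were hybridised on separate slides, HFD on 1 and ND on the other, so an effect of slide and one of diet cannot be told apart. Within a slide the feeding time changed with the row, so row and time cannot be told apart either. The 75th percentile of the processed intensity was 185 to 428 on the 4 HFD arrays and 482 to 597 on the 4 ND arrays, with HFD 9 months replicate 2 the lowest at 185. Each value below is the log2 signal of a gene's brightest probe minus the log2 of its array's 75th percentile, so 0 is the level of that percentile, and values compare arrays for 1 gene and not genes with each other. The probes used were well above background on 8 of 8 arrays for every tested member except Ifit2, which passed on 4. No spot was saturated. Differences are log2 fold changes ± SE from a limma fit over all features with n = 2 mice a group, and calls were made at an adjusted p (Benjamini-Hochberg, over all features) below 0.05. In whole liver, more cells of a type and more RNA per cell cannot be told apart.

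Over both durations, 17 of 33 members rose on HFD (51.5%) and 0 fell, while 10.3% of all features rose and 11.8% fell. The 17 were 8 of 20 type I genes and 9 of 13 gamma genes. Ifit2, among them, passed the filter on dim probes only through an HFD group, and without it the count was 16 of 32 (50%). The median difference over the members was 0.90, against 0.00 over all features. Fewer passed at a single duration. At 3 months 2 of 33 rose, Gbp2 and Oasl2 (6.06%, background 1.51% of features), and 0 fell (background 3.67%). At 9 months 3 of 33 rose, Gbp2, Oasl2 and Rsad2 (9.09%, background 3.56%), and 0 fell (background 4.73%). At an unadjusted p under 0.05 in either direction the counts were 17 members at 3 months (background 26.3%), 21 at 9 months (background 28.7%) and 24 over both (background 38.8%).

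The same can be seen in the single mice. At 3 months both HFD mice lay above both ND mice for 28 of 33 members (background 35.6% of features) and below them for 0 (background 35.4%). At 9 months the HFD mice lay above for 26 of 33 (background 28.5%) and below for 0 (background 26.1%). The difference between diets at 3 months and that at 9 months correlated across the 33 members with Pearson r = 0.624 and Spearman rho = 0.639. Over all 20165 features r was 0.684 and rho 0.64, and both durations share the 2 slides. The calls at 3 months, at 9 months and over both durations did not all hold with 1 array left out, which leaves 1 mouse in a group. The median difference at 3 months was then 0.48 to 0.64 over the type I genes and 0.97 to 1.05 over the gamma genes. At 9 months it was 0.69 to 1.96 over the type I genes and 0.59 to 1.16 over the gamma genes.

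**Figure D1:**
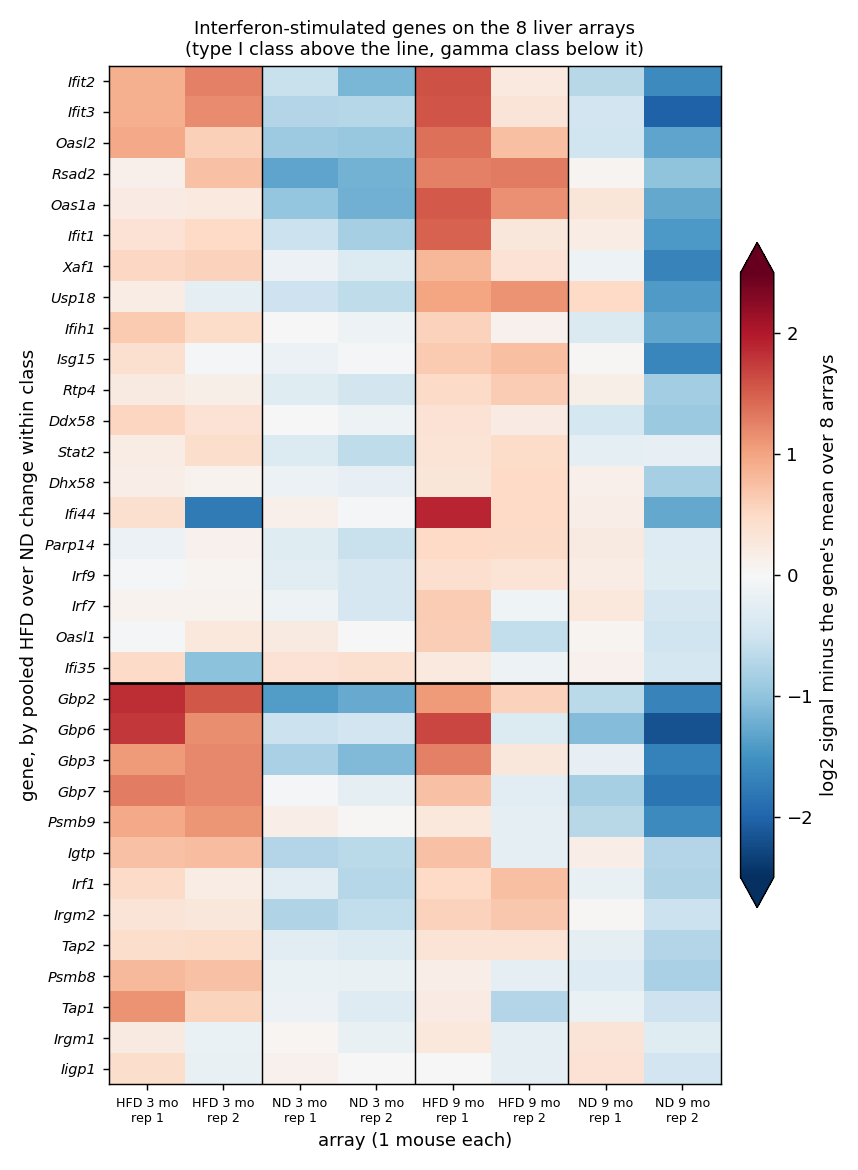
Level of the 33 tested members on each array, as log2 signal minus the gene's mean over the 8 arrays (colour), with 1 column per mouse, HFD left of ND at each duration, and genes ordered within a class by their pooled diet difference. The HFD columns are mostly red and the ND columns mostly blue, and the ND 9 months replicate 1 column is paler than that of replicate 2.

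The 8 type I genes that rose over both durations were Oasl2, Rsad2, Ifit3, Ifit2, Oas1a, Ddx58, Ifih1 and Stat2. Oasl2, a relative of the 2′-5′ oligoadenylate synthetases, which sense double-stranded RNA, stood at 0.50 and 0.16 in HFD 3 months mice, against -1.34 and -1.39 in ND 3 months mice. The HFD 9 months mice stood at 0.95 and 0.31, against -0.93 and -1.75 in ND 9 months mice. The diets did not overlap at either time. It rose by 1.69 ± 0.35 at 3 months (3.23-fold, adjusted p = 0.0484), by 1.97 ± 0.35 at 9 months (3.92-fold, adjusted p = 0.0266) and by 1.83 ± 0.24 over both (adjusted p = 0.00363). Rsad2, known as viperin, an enzyme that makes a chain-terminating nucleotide, stood at 0.64 and 1.24 in HFD 3 months mice, against -0.80 and -0.68 in ND 3 months mice. Its 9-month values were 1.77 and 1.82 on HFD, against 0.57 and -0.49 on ND. Its difference was 1.68 ± 0.38 at 3 months (adjusted p = 0.0577), just short of the threshold, and it rose by 1.75 ± 0.38 at 9 months (3.37-fold, adjusted p = 0.0433) and by 1.72 ± 0.25 over both (adjusted p = 0.00546).

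The IFIT proteins bind viral RNA that lacks the host's cap marks. Ifit3, whose promoter has 2 ISRE cores, stood at 2.28 and 2.56 in HFD 3 months mice, against 0.65 and 0.67 in ND 3 months mice. At 9 months it stood at 2.95 and 1.71 on HFD and at 0.91 and -0.63 on ND, so all 4 HFD mice were above all 4 ND mice, and it rose by 1.98 ± 0.39 over both durations (3.93-fold, adjusted p = 0.0145). Ifit2 was the dimmest member. It stood at -2.32 and -1.95 on HFD and at -3.75 and -4.35 on ND at 3 months, and at -1.61 and -2.96 on HFD and -3.91 and -4.80 on ND at 9 months. Its difference over both durations was 1.99 ± 0.34 (adjusted p = 0.0094). This call follows in part from the filter, since both arrays of a group were well above background in HFD 3 months mice alone. In ND 9 months mice Ifit2 was not well above background on either array, and in HFD 9 months mice it was on 1 of 2, so the size of this difference is uncertain. With ND values raised to no less than their array's lowest signal well above background, it was 3.54-fold. With the authors' value table, which has no background subtraction, its difference over both durations was 0.68. Ifit1 was higher on HFD without overlap at both times, by 1.31 ± 0.39 over both durations, and did not pass (adjusted p = 0.0515).

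Oas1a, an oligoadenylate synthetase that activates RNase L, stood at 1.80 and 1.85 in HFD 3 months mice, against 0.64 and 0.39 in ND 3 months mice. The later values were 3.14 and 2.73 in HFD 9 months mice, against 1.89 and 0.33 in ND 9 months mice, and it rose by 1.57 ± 0.33 over both durations (2.96-fold, adjusted p = 0.0183). A second Oas1a probe gave differences of 1.37 at 3 months and 1.60 at 9 months, close to the 1.31 and 1.82 of the probe used. Isg15, a ubiquitin-like modifier, and Usp18, the protease that removes it and also damps IFNAR signalling, were set apart by 1 mouse. Isg15 stood at 4.19 and 3.76 on HFD and at 3.64 and 3.75 on ND at 3 months, and at 4.45 and 4.54 on HFD and 3.81 and 2.15 on ND at 9 months. Usp18 stood at 1.72 and 1.29 on HFD and at 1.03 and 0.91 on ND at 3 months, and at 2.53 and 2.66 on HFD and 2.04 and 0.13 on ND at 9 months. For both genes ND 9 months replicate 2 was the lowest of the 8 arrays, and neither passed over both durations (adjusted p = 0.145 for Isg15 and 0.114 for Usp18). A second, dimmer Isg15 probe gave -0.32 at 3 months and 0.69 at 9 months, against 0.28 and 1.51 of the probe used. Ifi44, a cytoplasmic protein of unknown mechanism, was the most variable member. It stood at -1.44 and -3.61 on HFD and at -1.71 and -1.86 on ND at 3 months, and at 0.07 and -1.35 on HFD and -1.67 and -3.13 on ND at 9 months, and the diets overlapped at 3 months.

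Of the 3 cytosolic RNA sensors among the members, 2 rose over both durations and 0 passed at a single one. Ddx58, the gene of RIG-I, stood at 3.31 and 3.12 in HFD 3 months mice, against 2.78 and 2.64 in ND 3 months mice, and at 3.14 and 2.98 in HFD 9 months mice, against 2.33 and 1.84 in ND 9 months mice. It rose by 0.74 ± 0.17 over both durations (1.67-fold, adjusted p = 0.0241), and at 9 months alone its adjusted p was 0.0503. Ifih1, the gene of MDA5, stood at 3.18 and 2.99 on HFD and at 2.54 and 2.40 on ND at 3 months, and at 3.11 and 2.65 on HFD and 2.17 and 1.24 on ND at 9 months. It rose by 0.90 ± 0.25 over both durations (adjusted p = 0.0399), a call that held in 12 of 20 other settings. The third sensor, Dhx58, which regulates both, did not overlap between diets at either time and did not pass (0.53 ± 0.23, adjusted p = 0.129).

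Of the transcription factors, Stat2, a part of the ISRE-binding complex, stood at 2.82 and 3.06 in HFD 3 months mice, against 2.28 and 2.00 in ND 3 months mice. Its HFD 9 months mice stood at 2.96 and 3.08, against 2.39 and 2.42 in ND 9 months mice, and it rose by 0.71 ± 0.14 over both durations (1.63-fold, adjusted p = 0.0131). Its 2 ND 9 months mice were nearly level, and it was the one member in which replicate 2 of that group was the higher. Irf9, another part of that complex, and Irf7, the factor that amplifies interferon alpha production, differed by 0.40 ± 0.15 and 0.35 ± 0.22 over both durations and did not pass (adjusted p = 0.0876 and 0.289). The remaining type I genes, named after their values were seen, were Xaf1, Rtp4, Parp14, Oasl1 and Ifi35. None of them passed, and their pooled differences ran from -0.22 for Ifi35 to 1.15 for Xaf1, a pro-apoptotic factor (adjusted p = 0.0512). Rtp4, a chaperone of membrane receptors, and Parp14, an ADP-ribosyltransferase, did not overlap between diets at either time. Oasl1 and Ifi35 did overlap, and Ifi35 was the one tested member whose pooled difference was below 0.

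**Figure D2:**
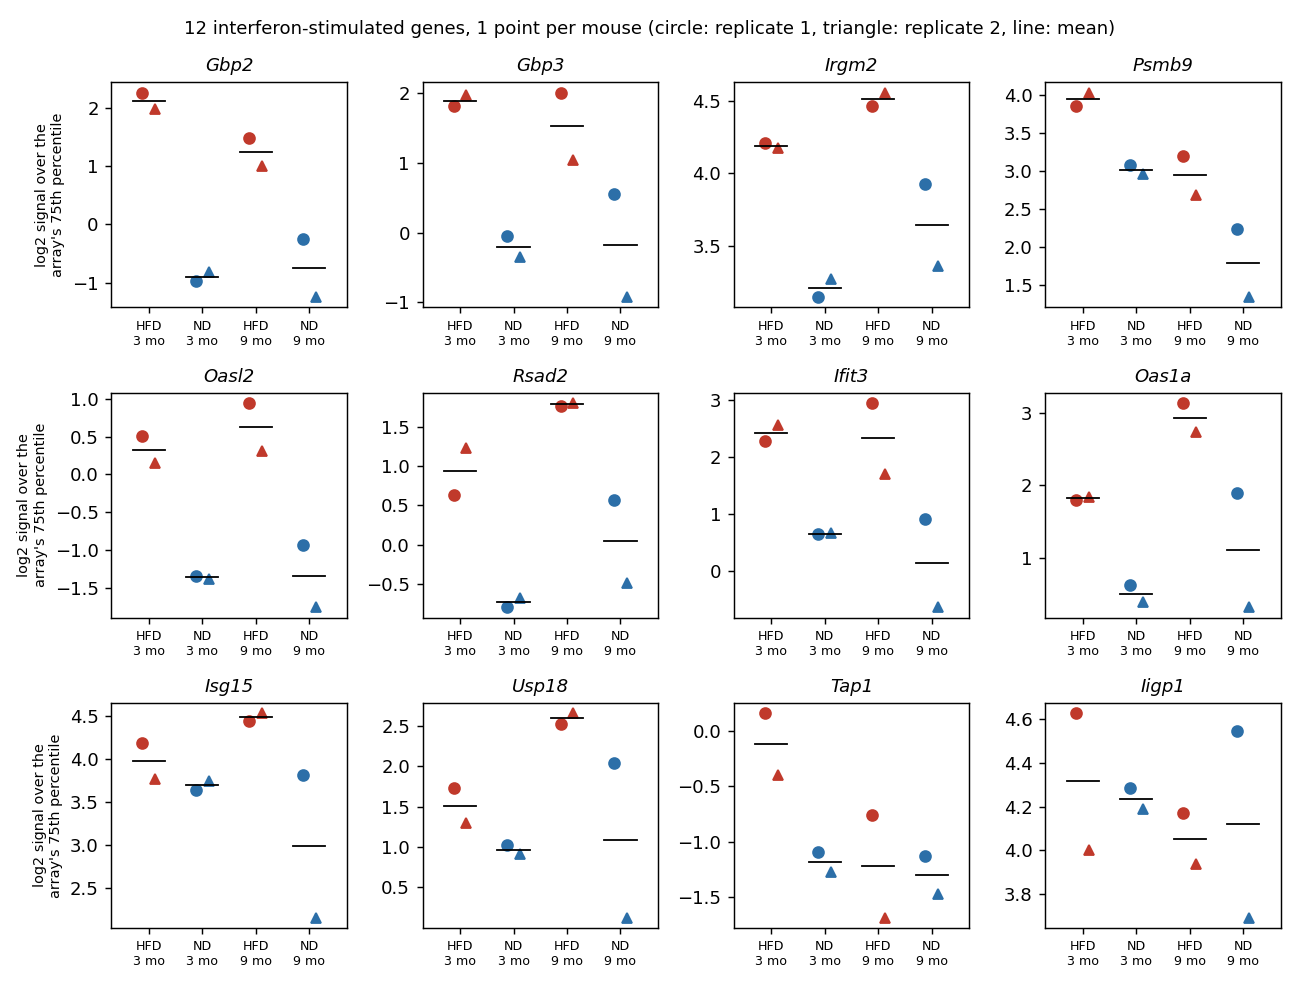
Values of 12 members on every array (log2 signal over the array's 75th percentile; 1 point per mouse, circles for replicate 1 and triangles for replicate 2, lines for group means), with HFD left of ND at 3 and at 9 months. Gbp2, Oasl2 and Rsad2 show HFD mice above ND mice at both times, while Iigp1 shows no such split.

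The gamma class was led by the guanylate-binding proteins, GTPases that coat and break open vacuoles of intracellular pathogens. Gbp2 stood at 2.27 and 1.98 in HFD 3 months mice, against -0.97 and -0.83 in ND 3 months mice. At 9 months it stood at 1.49 and 1.00 on HFD, against -0.25 and -1.25 on ND. All 4 HFD mice lay above all 4 ND mice. Gbp2 rose by 3.02 ± 0.36 at 3 months (8.12-fold, adjusted p = 0.0148), by 2.00 ± 0.36 at 9 months (3.99-fold, adjusted p = 0.0282) and by 2.51 ± 0.30 over both (adjusted p = 0.00292), the largest pooled difference of the members. Gbp3 stood at 1.82 and 1.97 on HFD and at -0.06 and -0.35 on ND at 3 months, and at 2.01 and 1.05 on HFD and 0.56 and -0.93 on ND at 9 months. It rose by 1.91 ± 0.36 over both durations (3.75-fold, adjusted p = 0.012), and the diets again did not overlap.

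Gbp7 stood at 0.61 and 0.52 on HFD and at -0.71 and -0.93 on ND at 3 months, and at 0.06 and -0.95 on HFD and -1.51 and -2.51 on ND at 9 months. Within each duration its diets did not overlap, but HFD 9 months replicate 2 was level with the ND 3 months mice, and it rose by 1.47 ± 0.29 over both durations (2.77-fold, adjusted p = 0.0142). With the authors' value table this difference was 0.85. Gbp6 stood at 1.93 and 1.33 on HFD and at -0.37 and -0.31 on ND at 3 months, and at 1.84 and -0.18 on HFD and -0.93 and -2.01 on ND at 9 months. It rose by 2.13 ± 0.45 over both durations (4.38-fold, adjusted p = 0.0182). A second Gbp6 probe, almost as bright, gave differences of only 0.17 at 3 months and 0.69 at 9 months, and with normexp background correction the pooled difference of Gbp6 was 0.42 and did not pass. The Gbp genes are close relatives in sequence, and cross-hybridisation between their probes was not tested.

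Of the 4 members that encode immunity-related GTPases (IRG proteins), which act on the same vacuoles, 1 passed over both durations. Irgm2, a regulator of the other IRG proteins, stood at 4.21 and 4.17 in HFD 3 months mice, against 3.14 and 3.27 in ND 3 months mice. At 9 months it stood at 4.46 and 4.56 on HFD, against 3.93 and 3.36 on ND, and it rose by 0.93 ± 0.16 over both durations (1.90-fold, adjusted p = 0.00859). Its neighbour Igtp, with the nearly identical promoter stretch, differed by 1.45 ± 0.40 at 3 months (adjusted p = 0.0904) and by 0.52 ± 0.40 at 9 months, and its difference over both, 0.98 ± 0.32, did not pass (adjusted p = 0.0628). Irgm1 and Iigp1, well above background on all arrays, had differences of 0.05 ± 0.20 and 0.01 ± 0.23 over both durations and did not pass. Dimmer second probes of these 2 genes gave 0.63 for Irgm1 and 0.42 for Iigp1 at 3 months and -0.10 and 0.02 at 9 months. These 3 genes were singled out after their values were seen.

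Irf1, the factor that carries the response to interferon gamma to secondary targets and whose promoter holds a GAS, stood at 4.33 and 4.05 in HFD 3 months mice, against 3.60 and 3.14 in ND 3 months mice. At 9 months it stood at 4.36 and 4.62 on HFD, against 3.67 and 3.10 on ND, and it rose by 0.96 ± 0.19 over both durations (1.95-fold, adjusted p = 0.0153). Psmb8 and Psmb9 encode the immunoproteasome subunits that replace constitutive ones for antigen processing, and Tap1 and Tap2 the transporter that brings the peptides into the endoplasmic reticulum. Psmb8 stood at 3.66 and 3.58 on HFD and at 2.68 and 2.65 on ND at 3 months, and at 3.00 and 2.62 on HFD and 2.52 and 2.04 on ND at 9 months. It rose by 0.75 ± 0.18 over both durations (adjusted p = 0.0249), a call that held in 12 of 20 other settings. Psmb9 stood at 3.86 and 4.03 on HFD and at 3.08 and 2.95 on ND at 3 months, and at 3.19 and 2.69 on HFD and 2.23 and 1.34 on ND at 9 months. It rose by 1.04 ± 0.23 over both (2.06-fold, adjusted p = 0.0189), with no overlap within a duration. Of the 3 constitutive subunits that these and Psmb10 replace, Psmb5, Psmb6 and Psmb7, 0 were called in any diet comparison, and their pooled differences were 0.03, 0.03 and -0.36.

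Of the 2 chains of the transporter, Tap2 passed over both durations and Tap1 did not. Tap2 stood at 4.07 and 4.08 in HFD 3 months mice, against 3.37 and 3.29 in ND 3 months mice, and at 3.97 and 3.97 in HFD 9 months mice, against 3.40 and 2.90 in ND 9 months mice. It rose by 0.78 ± 0.14 over both durations (1.72-fold, adjusted p = 0.0119). Tap1 stood at 0.16 and -0.40 on HFD and at -1.10 and -1.27 on ND at 3 months, and at -0.76 and -1.69 on HFD and -1.13 and -1.47 on ND at 9 months. It was thus higher in both HFD mice at 3 months (1.06 ± 0.36, adjusted p = 0.133) and overlapped at 9 months (0.08 ± 0.36), and whether Tap1 and Tap2 differ in this was not tested.

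**Figure D3:**
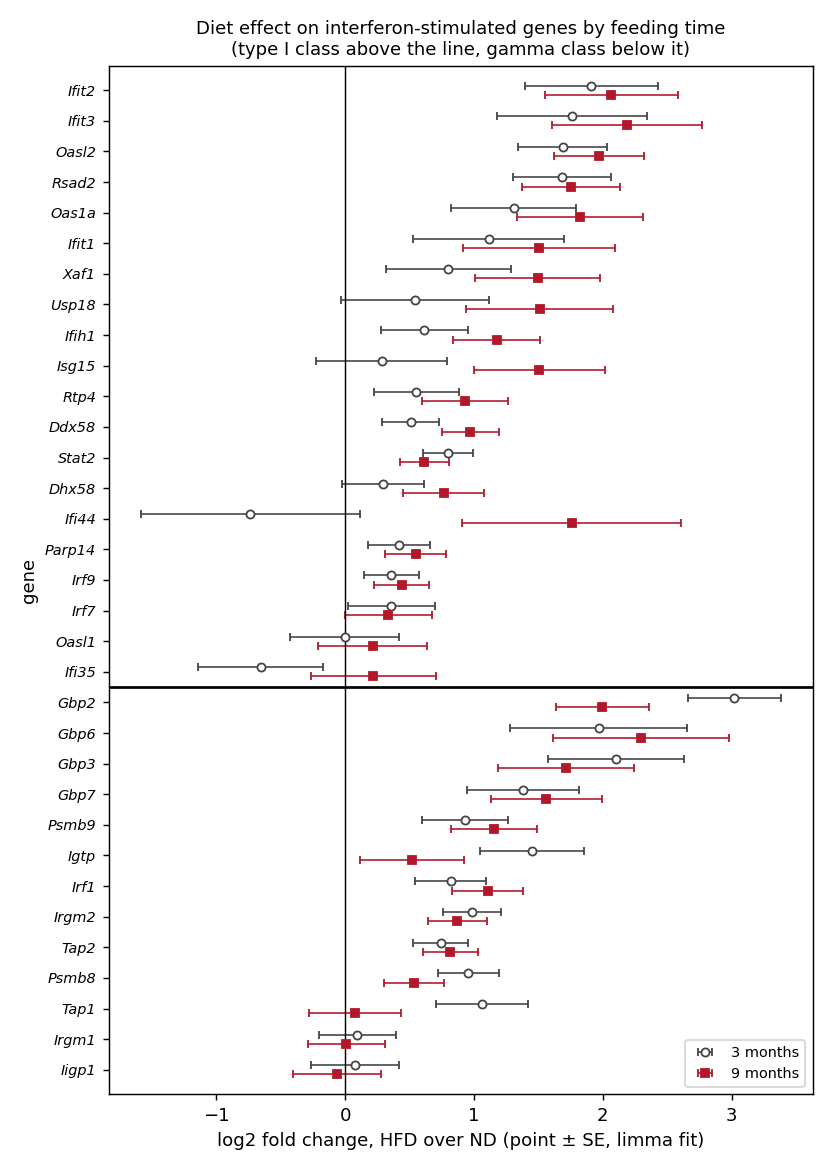
Difference between diets for each tested member (log2 fold change HFD over ND, ± SE of the limma fit, n = 2 mice a group) at 3 months (open circles) and at 9 months (red squares), type I class above the line and gamma class below it. Most type I genes have the 9-month point to the right of the 3-month point, while Gbp2, Igtp and Tap1 have it to the left.

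The classes were then compared by feeding time. At 3 months the median difference between diets was 0.55 over the 20 type I genes and 0.99 over the 13 gamma genes. At 9 months it was 1.34 for the type I class and 0.87 for the gamma class. The medians over all features were -0.01 at 3 months and 0.02 at 9 months. The diet difference was larger at 9 than at 3 months for 18 of 20 type I genes, with Stat2 and Irf7 the exceptions, and for 5 of 13 gamma genes. No member passed the test of that change (interaction), which called 0% of all features, and 0 members had an unadjusted p under 0.05 in it (background 7.62%). The smallest p belonged to Ifi44 (2.50 ± 1.20, adjusted p = 0.701 from limma). Of the gamma genes Gbp2 and Tap1 had the largest such values (-1.03 ± 0.51 and -0.99 ± 0.51, adjusted p = 0.707 and 0.711). The order of the classes at 9 months held when each 9-month array was left out in turn. The type I median was then 0.69 to 1.96 and the gamma median 0.59 to 1.16. The classes came close without ND 9 months replicate 2 (0.69 and 0.59) and without HFD 9 months replicate 1 (0.98 and 0.90). Leaving out a 3-month array cannot change these medians. The larger diet difference of type I genes at 9 months did not hold for every array. Without ND 9 months replicate 2 the diet difference was larger at 9 months in 6 of 20 type I genes, and without ND 9 months replicate 1 in 19 of 20. The gamma class moved too, to 1 of 13 without replicate 2 and 9 of 13 without replicate 1.

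Within the HFD mice the class medians had opposite signs over time, and the difference between the classes was not tested. Set at 9 against 3 months, the type I genes had a median difference of 0.31, with 15 of 20 above 0, and the gamma genes by a median of -0.51, with 11 of 13 below 0. The median of all features was 0.00. Both HFD 9 months mice lay above both HFD 3 months mice for 9 of 20 type I genes and 2 of 13 gamma genes, these 2 being Irf1 and Irgm2 (background 21% of features). They lay below for 0 of 20 type I genes and 7 of 13 gamma genes, namely Gbp2, Gbp7, Igtp, Psmb8, Psmb9, Tap1 and Tap2 (background 23.3%). No member passed the test of this change, in which 0.00992% of features were called, and 4 of 33 had an unadjusted p under 0.05 (12.1%), below the background of 15.5%. The 4 were Psmb8 (-0.81 ± 0.23), Tap1 (-1.10 ± 0.36), Psmb9 (-1.01 ± 0.33) and Gbp2 (-0.88 ± 0.36), with adjusted p = 0.227, 0.26, 0.263 and 0.32. Among type I genes Ifi44 (1.88 ± 0.85), Oas1a (1.11 ± 0.49) and Usp18 (1.08 ± 0.57) had the largest differences and did not pass (adjusted p = 0.349, 0.34 and 0.4). Without HFD 9 months replicate 2, the dim array, the medians were 0.52 for the type I class and -0.11 for the gamma class, and without HFD 9 months replicate 1 they were 0.14 and -0.99.

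In ND mice the medians from 3 to 9 months were -0.09 for the type I class and -0.12 for the gamma class, with -0.07 over all features. The ND 9 months mice lay above the ND 3 months mice for 3 of 33 members, Irgm2, Rsad2 and Stat2 (background 23.4%), and below for 7, Ddx58, Gbp6, Gbp7, Ifi35, Ifih1, Psmb8 and Psmb9 (background 37.1%). No member passed the test, in which 1.04% of features were called, and 3 of 33 had an unadjusted p under 0.05 (9.09%), below the background of 15.9%. They were Psmb9 (-1.24 ± 0.33, adjusted p = 0.155), Ddx58 (-0.62 ± 0.22, adjusted p = 0.252) and Gbp7 (-1.19 ± 0.43, adjusted p = 0.258). Psmb8, Psmb9 and Gbp7 had both 9-month mice below both 3-month mice on either diet, without a call on either.

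**Figure D4:**
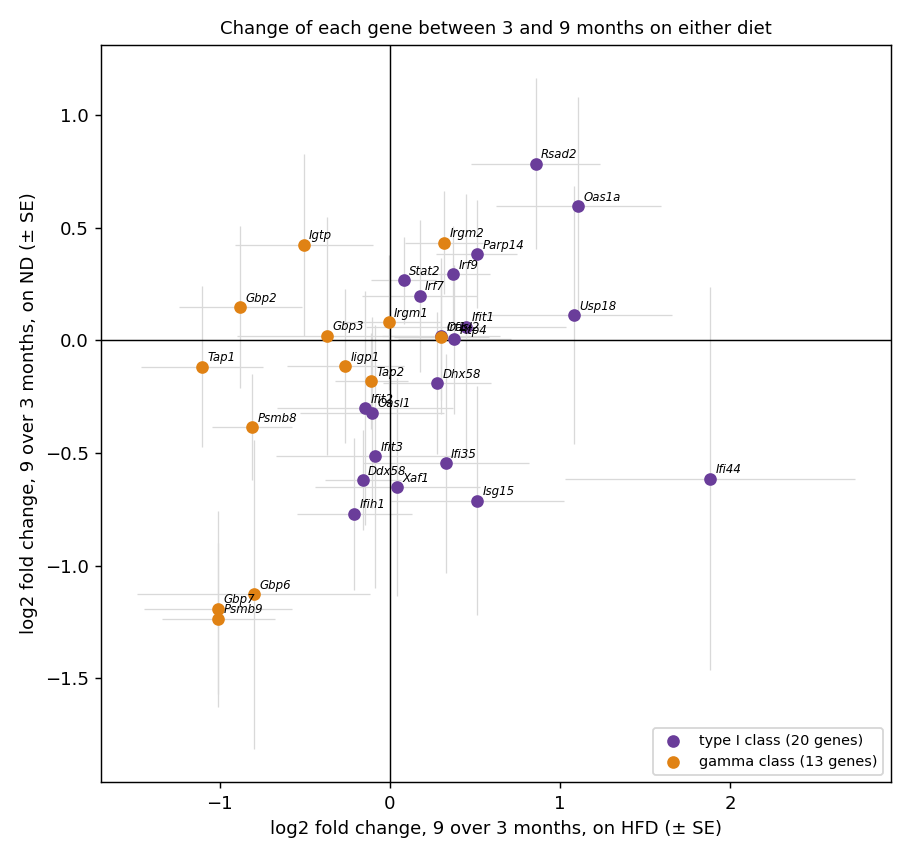
Change of each tested member between 3 and 9 months on HFD (horizontal axis) and on ND (vertical axis), as log2 fold change 9 over 3 months ± SE of the limma fit (n = 2 mice a group). On HFD 15 of the 20 type I genes lie right of 0 and 11 of the 13 gamma genes left of it, while on ND both classes spread around 0.

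The 2 ND mice of 9 months differed from each other in nearly all members. Replicate 1 was above replicate 2 for 32 of 33 members, by a median of 0.94 in the type I class (1.92-fold) and of 0.85 in the gamma class (1.8-fold). The widest gap was that of Usp18, 1.91. Over all features replicate 1 was the higher in 51.1%, with a median difference of 0.01. In the other groups replicate 1 was higher for 19 of 33 members at HFD 3 months, 24 at HFD 9 months and 25 at ND 3 months, and the median sizes of the gaps were 0.25, 0.46 and 0.14, against 0.89 at ND 9 months. The calls of Gbp2, Oasl2 and Rsad2 at 9 months did not hold in every fit with 1 array left out. Without ND 9 months replicate 1, the median difference between diets at 9 months was 1.96 over the type I genes and 1.16 over the gamma genes. The median over all features was then 0.004. Without ND 9 months replicate 2, which sets the HFD 9 months mean against replicate 1 alone, the class medians were 0.69 (type I) and 0.59 (gamma). The median over all features was then 0.04. Irf7, Oasl1, Ifi35, Irgm1, Iigp1 and Tap1 had differences below 0.

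**Figure D5:**
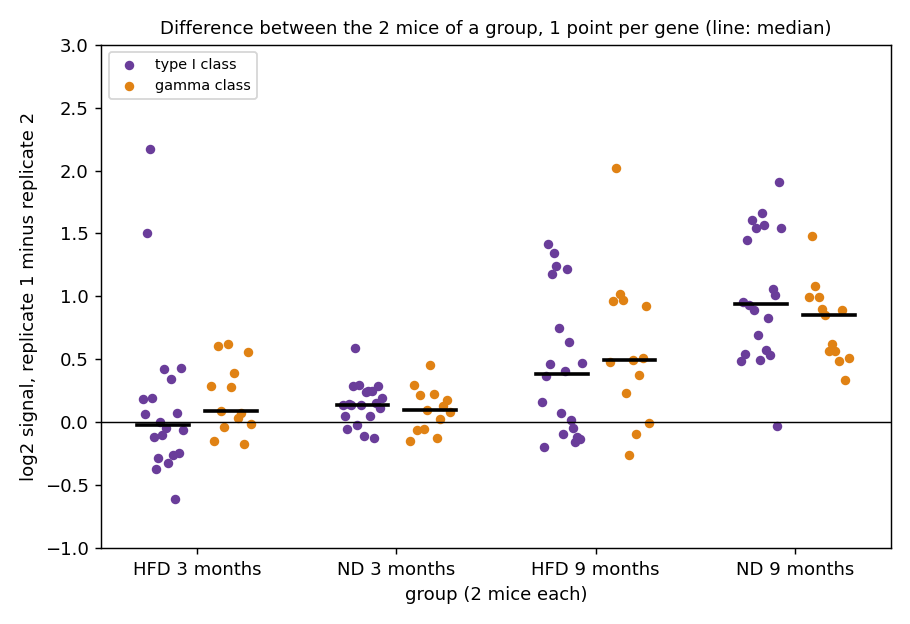
Difference between replicate 1 and replicate 2 of each group (log2 signal, 1 point per gene, purple for the type I and orange for the gamma class, line for the class median). In ND 9 months the points lie above 0 for 32 of 33 genes, with medians of 0.94 and 0.85.

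Markers of other cell types were set beside these differences, as tallies, medians and the summed signal of a list in multiples of the array's 75th percentile. A sum follows its brightest probe, which was Cd4 for the T and NK cell list (60.4 to 94.9% of the sum). It was Siglech for the plasmacytoid dendritic cell list (28.3 to 89.4%) and Csf3r for the neutrophil list (62.3 to 94.6%). For B cells it was Cd22 (16.3 to 71.6%), for stellate cells Dcn (54.5 to 65.3%) and for macrophages Csf1r (13.8 to 51.7%). Endothelial sums had Clec4g (22.9 to 43.4%) and hepatocyte sums Serpina1a (16.3 to 23.3%). Stellate cell markers were higher on HFD for 8 of 9 genes over both durations, with a median of 0.77. Of these 5 rose, Lrat, Pdgfrb, Reln, Rgs5 and Lum (55.6%, beside 51.5% of the members and a background of 10.3%). They summed to 133 and 172 on HFD and 123 and 136 on ND at 3 months, and to 167 and 150 on HFD and 165 and 127 on ND at 9 months. Endothelial markers were higher for 9 of 10, with a median of 0.64, of which Stab2 and Lyve1 rose and Kdr fell. Their sums were 61.4 and 57.0 on HFD and 47.5 and 60.2 on ND at 3 months, and 62.8 and 70.9 on HFD and 50.7 and 41.3 on ND at 9 months. Hepatocyte markers were lower for 11 of 13, with a median of -0.55, and Ass1, Hnf4a, Tat and G6pc fell. Those sums were 4796 and 4649 on HFD and 6616 and 7428 on ND at 3 months, and 4417 and 7267 on HFD and 6096 and 6170 on ND at 9 months.

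The 14 tested macrophage and Kupffer cell markers were higher for 11 genes over both durations, with a median of 0.95. Trem2 rose, and Ccr2, which passed the filter only through an HFD group, was called too. At 3 months they summed to 154 and 123 on HFD and to 87.6 and 71.3 on ND, with 12 of 14 higher on HFD. At 9 months they summed to 163 and 254 on HFD and to 442 and 144 on ND, with 10 of 14 higher on HFD. The 442 belonged to ND 9 months replicate 1, the mouse with the higher interferon-stimulated genes. The 9 tested T and NK cell markers were higher on HFD for 6 genes over both durations, with a median of 0.31 (0.75 at 3 months and 0.00 at 9 months). Ccl5 rose, while Cd4, Cd3e and Prf1 fell. Cd3g, Cd8a, Cd8b1, Ncr1, Klrb1c, Klrd1 and Gzmb did not pass the filter on dim probes. The NK receptor genes of this list, Ncr1, Klrb1c and Klrd1, were thus not tested. The 9 tested T and NK cell markers summed to 37.6 and 64.3 on HFD and 167 and 232 on ND at 3 months. At 9 months they summed to 31.5 and 38.5 on HFD and 229 and 164 on ND. The 5 tested B cell markers were higher for 4, with a median of 0.79, and the fifth, Cd22, fell, while Cd79a and Pax5 were not above background. They summed to 2.05 and 3.09 on HFD and to 2.30 and 2.55 on ND at 3 months, and to 1.96 and 2.29 on HFD and 3.73 and 1.62 on ND at 9 months.

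The 7 tested plasmacytoid dendritic cell markers were higher on HFD for 6 genes over both durations, with a median of 1.07 (0.47 at 3 months and 1.47 at 9 months). Ly6d and Tcf4 rose over both and Klk1 at 9 months, while Siglech, the defining marker of that cell, fell over both and at 3 months (-2.55, adjusted p = 0.033). They summed to 84.7 and 91.3 on HFD, against 223 and 218 on ND, at 3 months, and to 134 and 158 on HFD, against 160 and 311 on ND, at 9 months. The 5 tested neutrophil markers were higher for 3, with a median of 0.77, and Elane fell. Their sums were 68.3 and 97.4 on HFD and 129 and 141 on ND at 3 months, and 106.8 and 123 on HFD and 108 and 225 on ND at 9 months. The part of these cell types in the members' values was not tested.

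Upstream of the members, most of the interferon genes themselves gave little signal. Ifnb1, Ifng, Ifna2, Ifna4, Ifnk and Ifne did not pass the filter on dim probes. Ifna1 and Ifna5 passed it only through ND groups, so their lower values on HFD follow in part from the filter. Ifna1 was not well above background on any HFD array, so the size of its difference is uncertain. In the limma fit its adjusted p was 0.0255 at 3 months and 0.0192 at 9 months. With HFD values raised to no less than their array's lowest signal well above background, it was 2.01-fold lower at 3 months. At 9 months it was then 3.14-fold lower. Of the other 6 tested genes of interferons and their receptors, 2 rose (33.3%, background 10.3%) and 1 fell (background 11.8%) over both durations. The receptor chains for interferon gamma rose, Ifngr2 by 1.14 ± 0.17 (adjusted p = 0.00535) and Ifngr1 by 0.96 ± 0.22 (adjusted p = 0.024), while Ifnar1, a chain of the type I receptor, fell by 0.69 ± 0.14 (adjusted p = 0.0153). Of 15 signalling genes 2 rose (13.3%, near the background of 10.3%), the kinase gene Jak1 (0.56 ± 0.14, adjusted p = 0.0272) and the myeloid factor Irf8 (1.12 ± 0.23, adjusted p = 0.0168), and 0 fell. Of 15 nucleic acid sensing genes 2 rose and 2 fell (13.3% each, near the backgrounds of 10.3% and 11.8%). Zbp1, a sensor of Z-form nucleic acid, rose by 1.56 ± 0.34 (adjusted p = 0.0189) and Ifi204 by 1.32 ± 0.27 (adjusted p = 0.016), while the endosomal RNA receptor Tlr7 fell by 1.21 ± 0.19 (adjusted p = 0.0068) and the RNA-editing enzyme Adar by 0.52 ± 0.16 (adjusted p = 0.0495).

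Of 25 tested interferon-induced genes outside the 35, 12 rose on HFD over both durations (48%, background 10.3%) and 0 fell (background 11.8%). Their median was 0.66. At 3 months 3 rose (12%, background 1.51%), and at 9 months 6 rose (24%, background 3.56%). Cxcl10 and Cxcl9, chemokines that draw T cells, rose by 2.51 ± 0.28 (adjusted p = 0.00234) and 2.09 ± 0.18 (adjusted p = 0.00109) over both durations, and each was also called at 3 and at 9 months. Samd9l, an antiviral factor, rose by 1.94 ± 0.32 (adjusted p = 0.00857). Gbp5 (1.35 ± 0.18), Gbp4 (1.23 ± 0.20) and Gbp9 (0.66 ± 0.17) rose with the Gbp members, and Oas2 (1.11 ± 0.22) and Eif2ak2, the gene of the kinase PKR (0.63 ± 0.15), rose as well. Of 14 MHC class I pathway genes 4 rose over both durations (28.6%, background 10.3%) and 0 fell (background 11.8%), with a median of 0.23. The 4 were the peptide-trimming protease Erap1, the chaperones Canx and Pdia3, and Tapbpl.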

How the data were processed

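RNA of 8 livers was hybridised to 1-colour Agilent arrays, 1 mouse per array. The authors deposited 1 scanner file per array, written by Feature Extraction 10.7.1.1, per the submitters' processing notes. Its processed intensity had background and spatial trend removed, per the file headers, and was not scaled between arrays. The deposited spot flags are other values, 0 or 1. The authors' deposited value table holds log2 values that rank each array as its median signal does (rho of 1), with nearly equal medians (7.14).

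Control spots and outlier spots were dropped, and log2 processed signals (pseudocount 0) were set relative to each array's 75th percentile. Probes well above background on both arrays of a group were kept (25801), and the brightest probe stood for a gene. Accessions were matched to RefSeq symbols of GRCm38.p6, and the arrays' own annotation is on mm9, so no array coordinates are given. Promoter windows are RefSeq's. limma 3.58.1 in R 4.3.3 (lmFit, eBayes) was fitted to all 20165 features on 4 group means (4 residual degrees of freedom, prior 2.33), and with duration as covariate for the pooled diet effect. Figures used Python 3.11.15 and matplotlib 3.10.9.

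The members, the other gene lists and the contrasts were chosen with earlier results of these data known. Values on every array are given for members past the threshold in any of the 6 contrasts, for the 4 of each class with the smallest p at each duration, and for the 3 of each class that changed most between durations on either diet. Of other lists, called genes and up to 3 with the smallest p were eligible to be named. Per the labels the mice of a group are separate animals that share only a number between groups, and deviations of same-numbered mice correlated with r of -0.02 to 0.14 across features, so no pairing was used. Precision is limited by having 2 arrays a group. Alternatives were other normalizations, background corrections (normexp on the median spot signal), filters, probe rules, weights, moderation and left-out arrays.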

Additional observations from a re-analysis of the deposited data

How the results depend on the processing

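No member that was called turned its direction under any setting tried. At 3 months, where 2 members were called, quantile normalization gave 1, normexp background correction 6, the authors' deposited values 6, no filter on dim probes 0, only probes well above background on all arrays 4, array weights 14, eBayes with trend and robust 6, and a fit of only the 4 arrays compared 16. At 9 months, where 3 were called, the authors' deposited values gave 8, no filter 0, only probes well above background on all arrays 5, array weights 0, eBayes with trend and robust 7, and only the 4 arrays compared 0. Without the filter 37084 features shared the adjustment, and the fit of 4 arrays had fewer samples. For the other changes of count the cause was not tested. The counts in this section are of members only. The share of all features called under each setting is not given beside them. A change of count is therefore not a result about the members. Array weights added 1 call from 3 to 9 months on ND, Psmb9. With 1 array left out the counts ran from 0 to 6 at 3 months, 0 to 12 at 9 months, 8 to 21 over both durations, 0 to 1 over time on HFD (Tap1, without HFD 9 months replicate 1) and 0 to 0 over time on ND and for the interaction. Where a left-out array leaves 1 mouse in a group, that mouse is taken to vary like the other groups. At 9 months, with 1 array left out, the type I median ran from 0.69 to 1.96 and the gamma median from 0.59 to 1.16. With 2 mice a group, the gap between them sets how far leaving 1 out can move a mean. The size of these moves was therefore not judged against the spread between mice. At 3 months, over all single arrays left out, the type I median was 0.48 to 0.64 and the gamma median 0.97 to 1.05. Over both durations the other settings gave 12 to 22 calls, and Gbp2, Gbp3, Ifit2, Ifit3, Irgm2, Oasl2, Rsad2 and Tap2 were called in every one that tested them. With the mouse number as a replicate block 2, 3 and 19 members were called at 3 months, 9 months and over both, and Rsad2 at 9 months did not pass (adjusted p = 0.0688), although the numbers do not pair animals. The percentile over probes detected on all arrays, chosen after seeing the data, gave 19 over both. Without the filter the median of all features was 0.25 at 3 months and 0.30 at 9 months, and under normexp 0.10 at 9 months.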

Other observations

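Ifi44 and Ifi35, both of the type I class, stood apart on 1 array, HFD 3 months replicate 2. Ifi44 was at -3.61 there, against -1.44 in replicate 1 of that group, and Ifi35 at 1.16, against 2.66. The other 18 tested type I genes of that pair differed by less than 0.70, and the macrophage marker sum was 123 in that mouse and 154 in replicate 1. Without that array the type I median at 3 months was 0.64, and 19 of 20 type I genes were higher on HFD.

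Socs3, an inhibitor of JAK and STAT signalling that interleukin 6 induces, was lower on HFD at 3 months by a log2 difference of -2.05 and at 9 months by -0.65, and passed in neither (adjusted p = 0.145 and 0.595). Ly6d, listed among plasmacytoid dendritic cell markers, had differences of 3.35 and 3.15 (adjusted p = 0.0576 and 0.0552), opposite in direction to Siglech of the same list.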
